A study of Homo sapiens with 6 samples.

Results

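This account covers the histone genes, read as 58 probe sets of 50 genes out of the 54675 probe sets of an expression array. The members were all probe sets listed with a single gene whose symbol, current or older, is that of a clustered or linker histone (HIST1H to HIST4H, or H1-, H2AC, H2BC, H3C and H4C). That rule uses names only. It also took in the antisense RNA H1-10-AS1, which is no histone gene and was set aside, with intensities of 3.68 to 12.7. The study used A549, a human lung adenocarcinoma cell line, in 3 stable lines made with lentiviral vectors, each with a tetracycline-inducible short hairpin RNA. The arrays with knockdown were shCNOT3-1 with doxycycline (DOX) and shCNOT3-2 with DOX, and the other line given DOX was shNTC, with a non-targeting hairpin. The same 3 lines grown without DOX were the uninduced arrays, so every array came from a transduced line that carried a hairpin. DOX was used at 1 ug/ml for 72 hours. There was 1 array for each line and DOX state, 6 in all, and repeat cultures are not described, so the hairpins are the only replicates of knockdown (n = 2).

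Histones package DNA: H2A, H2B, H3 and H4 form the nucleosome core, and H1 binds the linker DNA between nucleosomes. Most of their genes lie in clusters, are copied into mRNA during S phase, and end in a stem-loop in place of a poly(A) tail. The stem-loop binds SLBP, which guides the making, translation and decay of these mRNAs. Some of the same genes also give polyadenylated transcripts, and the linker histone gene H1-10 and most replacement variants are expressed outside S phase with poly(A) tails. CNOT3 is a subunit of CCR4-NOT, the complex that shortens poly(A) tails. Labelled cRNA made by priming on poly(A) would see mainly the polyadenylated share of histone mRNA. The labels name the Affymetrix procedure without stating the primer.

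Histone promoters carry short elements that recur by class, and 5 are printed here, from RefSeq (GRCh38.p14), for genes whose values are described below. H1-2, H2AC6 and H2BC21 were higher with DOX in shCNOT3-1 and lower in shCNOT3-2, and H2AC4 was lower in both. H2BC12 had the same signs as H1-2, with small log2 differences (0.35 in shCNOT3-1 and -0.08 in shCNOT3-2). Each runs 5′ to 3′ from 250 bases before to 50 after the annotated start, with matches on either strand in capitals. The letters searched were TATAAA (1 form of the TATA box), CCAAT, ATTTGCAT (the octamer) and AAACACA (the H1 box). Other forms of the TATA box were not searched, so a promoter without TATAAA may still hold one. In H2BC12, TATAAA on opposite strands overlaps in 1 place, so 1 run of capitals there holds a pair of matches. The windows are chr6:26056421-26056720 (minus strand) for H1-2, chr6:26123922-26124221 (plus strand) for H2AC6, chr1:149886633-149886932 (minus strand) for H2BC21, chr6:27146809-27147108 (minus strand) for H2BC12 and chr6:26033569-26033868 (minus strand) for H2AC4.
H1-2: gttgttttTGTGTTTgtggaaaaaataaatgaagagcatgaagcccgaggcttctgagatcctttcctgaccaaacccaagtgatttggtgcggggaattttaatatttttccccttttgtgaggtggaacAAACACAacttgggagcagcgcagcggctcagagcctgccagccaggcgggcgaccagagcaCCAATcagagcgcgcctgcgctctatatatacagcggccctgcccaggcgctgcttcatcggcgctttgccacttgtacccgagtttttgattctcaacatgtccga
H2AC6: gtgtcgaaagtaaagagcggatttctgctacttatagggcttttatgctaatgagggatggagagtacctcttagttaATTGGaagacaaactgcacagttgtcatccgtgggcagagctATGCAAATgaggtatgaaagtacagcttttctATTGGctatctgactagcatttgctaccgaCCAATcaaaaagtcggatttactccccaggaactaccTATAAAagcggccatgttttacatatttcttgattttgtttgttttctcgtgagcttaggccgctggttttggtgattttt
H2BC21: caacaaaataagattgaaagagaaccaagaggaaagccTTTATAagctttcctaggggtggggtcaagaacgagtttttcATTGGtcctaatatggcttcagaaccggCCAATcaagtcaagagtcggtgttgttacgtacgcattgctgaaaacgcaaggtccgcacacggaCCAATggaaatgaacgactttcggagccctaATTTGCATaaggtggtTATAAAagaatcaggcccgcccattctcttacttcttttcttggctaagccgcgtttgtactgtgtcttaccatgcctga
H2BC12: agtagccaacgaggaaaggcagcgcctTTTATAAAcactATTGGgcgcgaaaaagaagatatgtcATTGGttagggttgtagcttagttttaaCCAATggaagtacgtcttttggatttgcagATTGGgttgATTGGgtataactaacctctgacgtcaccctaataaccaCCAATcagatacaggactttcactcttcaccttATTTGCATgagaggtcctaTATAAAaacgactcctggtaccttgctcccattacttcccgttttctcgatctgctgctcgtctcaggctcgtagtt
H2AC4: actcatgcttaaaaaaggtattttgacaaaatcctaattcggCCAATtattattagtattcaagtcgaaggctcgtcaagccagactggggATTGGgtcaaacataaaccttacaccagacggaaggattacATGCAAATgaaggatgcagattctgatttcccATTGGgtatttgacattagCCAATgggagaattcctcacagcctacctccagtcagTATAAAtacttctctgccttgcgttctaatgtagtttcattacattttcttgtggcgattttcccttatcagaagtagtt

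Promoters of 44 of the 50 genes were found in the table. The octamer was present in 6 of 8 H2A and 10 of 13 H2B promoters and in none of the 9 H1, 7 H3 or 7 H4 promoters, against 1.8% of the promoters of all 27305 genes. The H1 box was present in 7 of 9 H1 promoters and in none of the other classes, against 5.76% of all promoters. CCAAT was present in every H2A, H2B and H3 promoter, in 8 of 9 for H1 and in 2 of 7 for H4, against 35.7% of all. TATAAA was present in 29 of 44 histone promoters (65.9%), against 12% of all. Some histone genes lie close together and point apart, and 8 of the 44 windows overlapped that of another histone gene, among them H2AC6 with H2BC4. A match is a run of letters and was not tested as a site. Of the printed promoters, those of H2AC6, H2BC21, H2BC12 and H2AC4 each hold 1 octamer. Whether the octamer bears on the values of these genes was not tested.

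Probe set values were deposited as MAS5 intensity on a linear scale, with a trimmed mean of 500.1 on all 6 arrays. A probe set was called dim when its mean log2(intensity + 1) was below the array-wide median over probe sets, equal to an intensity of 61.4. Of the 58 histone probe sets 26 lay above that level and 32 were dim. Each gene was read from its brightest probe set, which left 23 of 50 histone genes (46%) for the tests, against 12630 of 19775 genes in all (63.9%). CNOT3, the targeted gene, read 81.9 with DOX and 227 without in shCNOT3-1, 46.9 and 228 in shCNOT3-2, and 166 and 178 in shNTC. Of 8 lung epithelial and A549 markers 7 read 2163 or more on every array, and EPCAM read 132 to 372. Markers of other cell types summed to 1153 with DOX and 842 without in shCNOT3-1, 1125 and 792 in shCNOT3-2, and 823 and 1105 in shNTC. Of the 7 of these 8 markers with a probe set, PTPRC, CD3E, CDH5 and COL3A1 were dim, and CD79A, PECAM1 and COL1A1 read 107 to 553. The 3' to 5' ratio of ACTB, a measure of RNA integrity, was 1.42 with and 1.33 without DOX in shCNOT3-1, 1.45 and 1.36 in shCNOT3-2, and 1.47 and 1.58 in shNTC. That of GAPDH was 1.03 with and 0.98 without DOX in shCNOT3-1, 1.05 and 1.09 in shCNOT3-2, and 0.966 and 0.98 in shNTC. In bulk RNA, fewer cells making a histone mRNA and less of it per cell cannot be told apart, and neither can a change in amount and a change in the share with a poly(A) tail.

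**Figure D1:**
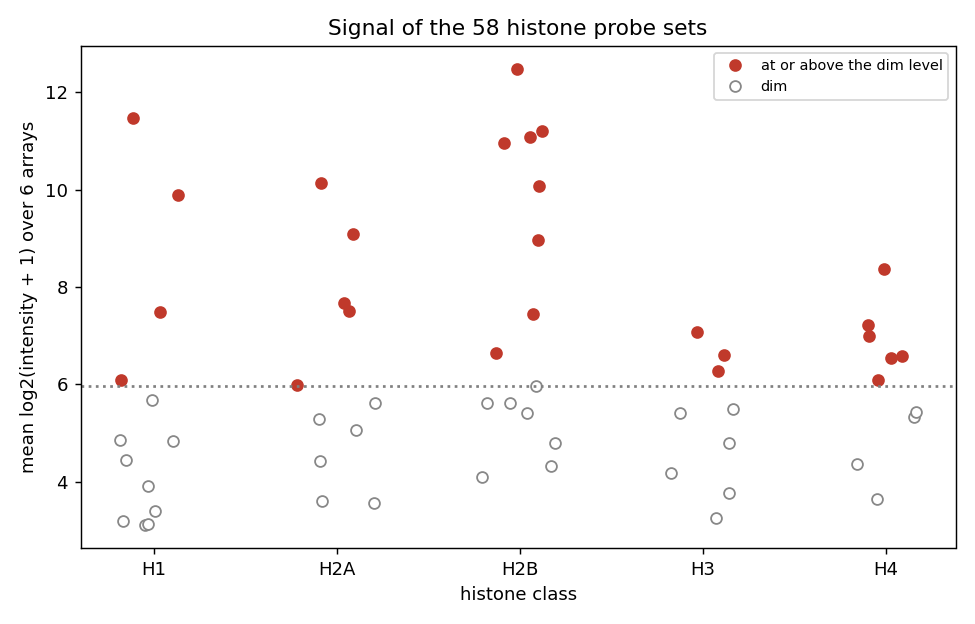
Mean log2(intensity + 1) over the 6 arrays (vertical axis) of each of the 58 histone probe sets, by class (horizontal axis). Filled points are the 26 probe sets at or above the dotted dim level and open points the 32 dim ones. Brightness depends on the probes, so heights do not rank genes by mRNA amount.

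No histone gene passed the threshold for CNOT3 knockdown. In limma, with Benjamini-Hochberg adjustment over all 12630 genes, 0 of 23 had an adjusted p under 0.05, where 0.222% of all genes did. The knockdown term is the mean DOX difference of the shCNOT3 lines, and its lowest adjusted p among histone genes in limma was 0.308. At an unadjusted p under 0.05 stood H2AC25, which was higher, and H2AC4, which was lower. These are 1 of 23 in each direction, against 7.45% higher and 7.08% lower over all genes, so the share of histone genes was no larger than the background. The median knockdown term was 0.02 on the log2 scale over the 23 histone genes and 0.03 over all genes tested. CNOT3, the targeted gene, had a knockdown term of -1.86 ± 0.36 (SE of the model), with an adjusted p of 0.0677 in limma. It passed neither here nor against the DOX difference of shNTC, so failing the threshold does not show that a gene was unchanged. Against the DOX difference of shNTC, again 0 of 23 passed in limma (0% of all genes). H2AC25, H3C6 and H4C9 had an unadjusted p under 0.05 there, 3 of 23 against 8.4% of all genes.

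Each line is given on its own, since the knockdown term averages both hairpins. In shCNOT3-1, 16 of the 23 histone genes were higher with DOX and 7 lower, with a median log2 difference of 0.30 (0.05 over all genes). In shCNOT3-2, 6 were higher and 17 lower, with a median of -0.40 (0.02 over all genes). In shNTC, 9 were higher and 14 lower, with a median of -0.11 (-0.01 over all genes). Of all genes tested, 54.5% were higher with DOX in shCNOT3-1, 51.8% in shCNOT3-2 and 48.8% in shNTC. Higher in shCNOT3-1 and lower in shCNOT3-2 were 11 of the 23 (47.8%), against 21.3% of all genes tested. The opposite pair of signs was seen in H4C5 alone, against 18.6% of all genes. Higher in both were 5 (33.2% of all genes), and lower in both were 6 (26.9%). Probe sets ending in _x_at or _s_at may bind several similar transcripts. Of the 11 tested genes read from such probe sets, 8 were higher in shCNOT3-1 and lower in shCNOT3-2. Of the 12 read from other probe sets, 3 had these signs. The 11 genes with these signs are therefore not 11 separate measurements. The share of all genes by type of probe set was not taken.

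**Figure D2:**
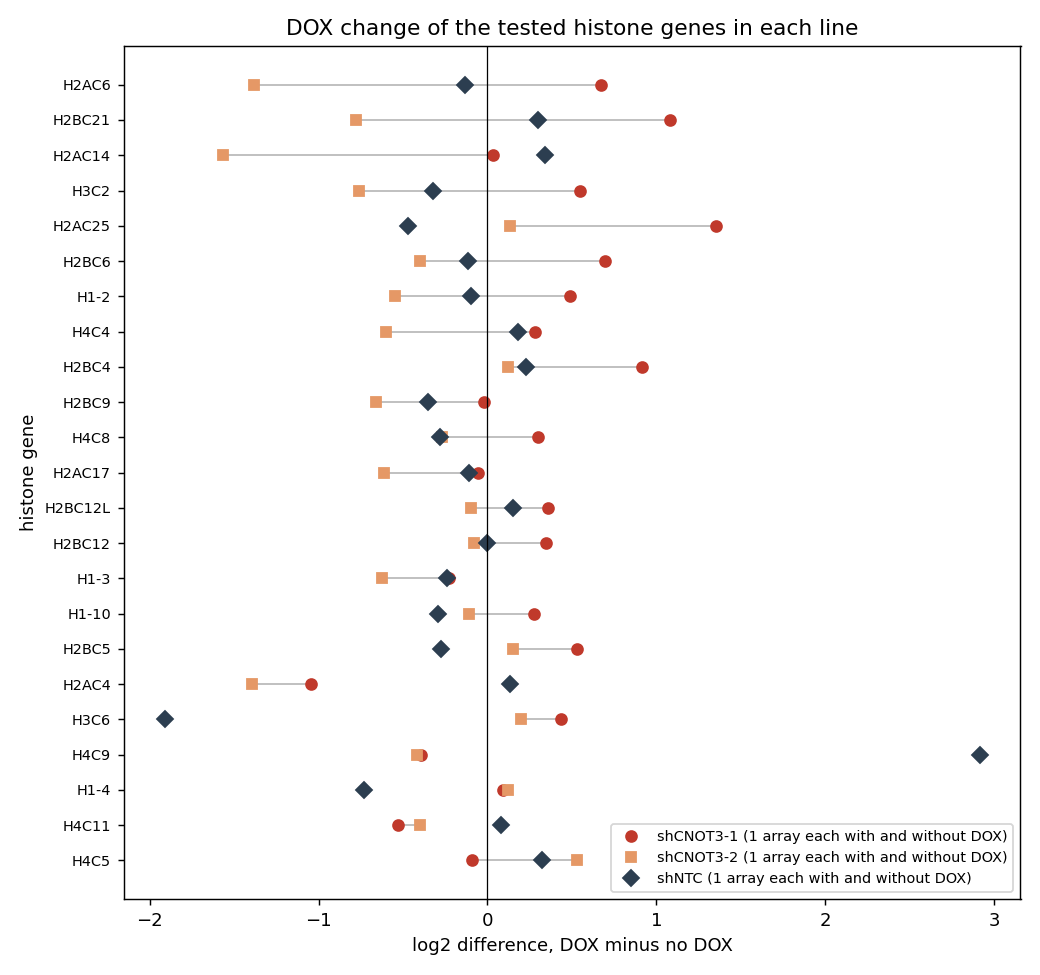
Log2 difference between DOX and no DOX (horizontal axis) for the 23 tested histone genes (vertical axis), ordered by the difference between the CNOT3 hairpins. Circles are shCNOT3-1, squares shCNOT3-2 and diamonds shNTC, each from 1 array with and 1 without DOX, and grey lines join the hairpins. From H2AC6 at the top, most circles lie right of 0 and most squares left of it.

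Of the 10 H1 genes 4 were tested, with median log2 differences of 0.18 in shCNOT3-1, -0.33 in shCNOT3-2 and -0.26 in shNTC. H1-2, a replication-dependent H1 of the large cluster on chromosome 6, read 1406 with DOX and 1003 without in shCNOT3-1. It read 584 and 852 in shCNOT3-2, and 968 and 1037 in shNTC. The array of shCNOT3-1 with DOX was the highest of the 6 and that of shCNOT3-2 with DOX the lowest, so the uninduced arrays lay between the hairpins. H1-10, a linker histone made outside S phase, read 3798 with DOX and 3135 without in shCNOT3-1, 2599.8 and 2799 in shCNOT3-2, and 2209 and 2702 in shNTC. For H1-10 the hairpins had log2 differences of 0.28 and -0.11, and shNTC had -0.29. H1-3 read 170.4 and 200.1 in shCNOT3-1, 153 and 235 in shCNOT3-2, and 146 and 172 in shNTC, with DOX first in each pair. It was lower with DOX in all 3 lines, so its knockdown term (-0.43 ± 0.30, SE of the model) was not set apart from the control line. H1-4, close to the dim level, read 41.6 to 84.7 over the 6 arrays.

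Of the 9 H2A genes 5 were tested, with medians of 0.04 in shCNOT3-1, -1.38 in shCNOT3-2 and -0.11 in shNTC. H2AC6 read 2009 with DOX and 1259.9 without in shCNOT3-1, 433 and 1129 in shCNOT3-2, and 1233 and 1353 in shNTC. The 4 other arrays lay between those of shCNOT3-1 with DOX and shCNOT3-2 with DOX. H2AC14 read 288 and 281 in shCNOT3-1, 43.3 and 130.1 in shCNOT3-2, and 427 and 337 in shNTC, so a large difference was seen in shCNOT3-2 alone. H2AC17 read 213 and 222, 128 and 197, and 161 and 174 in the same order, lower with DOX in each line.

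H2AC25, the H2A gene of the small cluster once named HIST3, read 1267 with DOX and 495 without in shCNOT3-1. It read 492 and 448 in shCNOT3-2, and 364 and 504 in shNTC. Its knockdown term was 0.74 ± 0.30 (SE of the model; SD between hairpins 0.86, n = 2), with an adjusted p of 0.308 in limma. The size of that term rested on shCNOT3-1, whose log2 difference was 1.35 against 0.14 in shCNOT3-2. A dim second probe set of H2AC25 read 21.1 and 10.0, 11.2 and 82.1, and 36.0 and 9.80. It too was higher with DOX in shCNOT3-1, but it went the other way from the first in shCNOT3-2 and in shNTC.

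H2AC4 was the only tested histone gene at least 2-fold different the same way in both hairpins, against 0.483% of all genes on the lower side and 0.76% on the higher. It read 44.3 with DOX and 92.4 without in shCNOT3-1, 24.6 and 66.2 in shCNOT3-2, and 95.7 and 87.1 in shNTC. Both shCNOT3 arrays with DOX lay below the 4 others. This was so for 2 of 23 histone genes, H2AC4 and H4C11, against 12.8% of all genes, and in 0 of 23 both lay above, against 16% of all genes. The knockdown term of H2AC4 was -1.22 ± 0.51 (SE of the model; SD between hairpins 0.25, n = 2), with an adjusted p of 0.322 in limma. Its mean log2 of 5.98 stood just above the dim level of 5.96, where H2BC14, at 5.95, stood just below it.

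**Figure D3:**
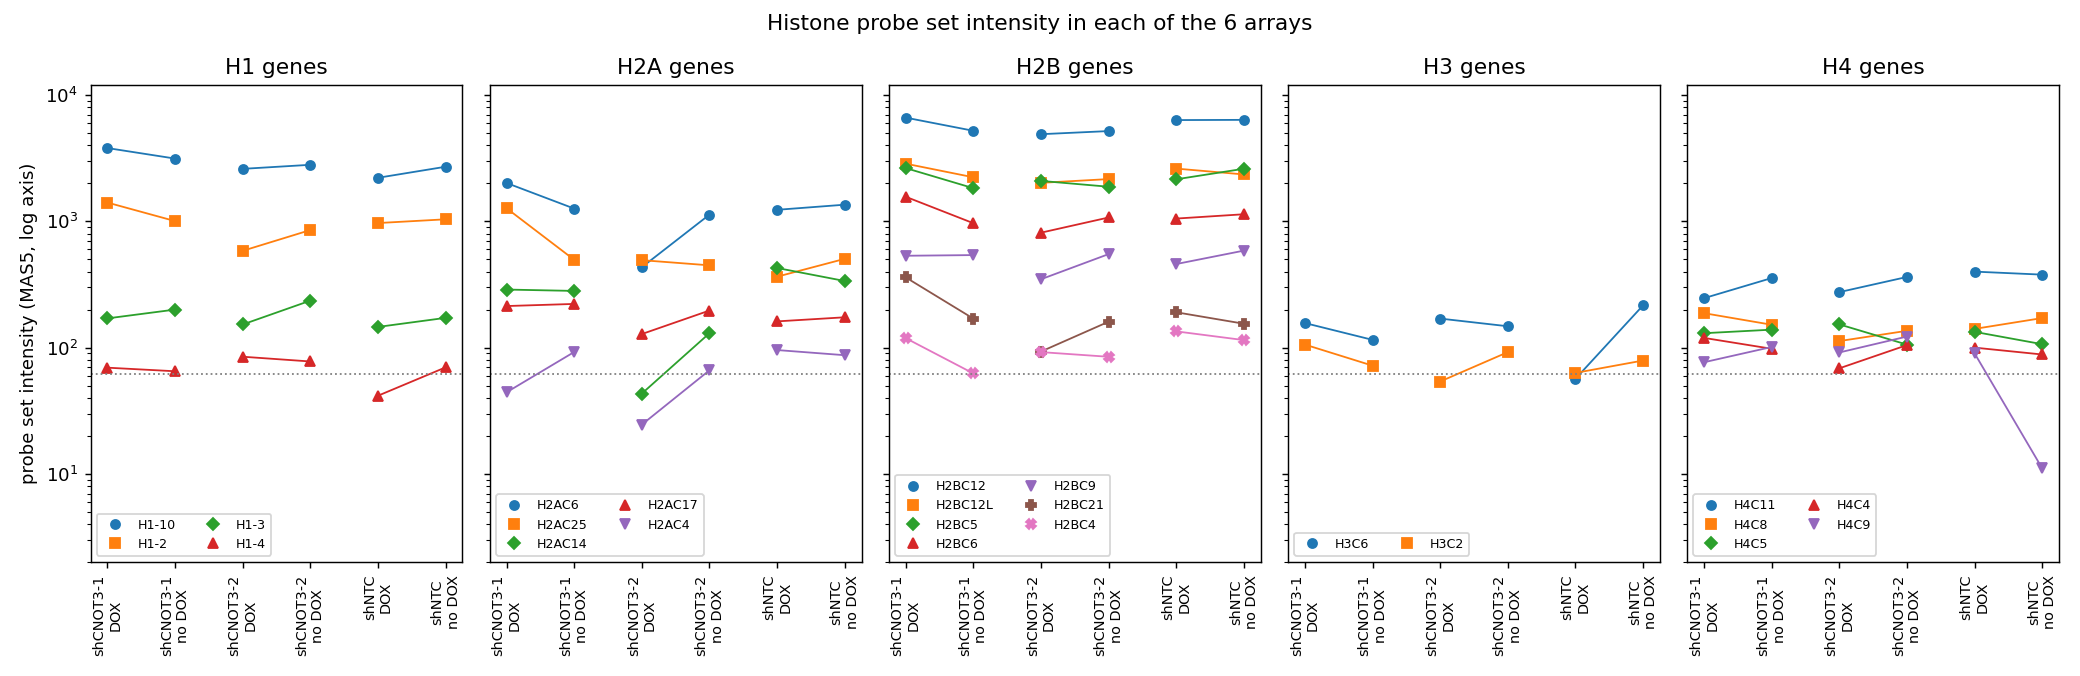
Intensity (vertical log axis) of the 23 tested histone genes on each of the 6 arrays (horizontal axis), in a panel for each class, with lines joining the arrays of the same cell line. The dotted line is the dim level of 61.4. H2AC6 is highest on the shCNOT3-1 array with DOX (2009) and lowest on the shCNOT3-2 array with DOX (433), and H4C9 has its low value (11.1) in uninduced shNTC.

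Of the 14 H2B genes 7 were tested, with median log2 differences of 0.53 in shCNOT3-1, -0.10 in shCNOT3-2 and -0.01 in shNTC. H2BC12 read 6611 with DOX and 5202 without in shCNOT3-1, 4889 and 5176 in shCNOT3-2, and 6325 and 6349 in shNTC. Its knockdown term was 0.13 ± 0.16 (SE of the model; SD between hairpins 0.30, n = 2), and the uninduced arrays alone differed 1.23-fold. H2BC12L, a near copy of an H2B gene read from an _x_at probe set, read 2857 and 2229 in shCNOT3-1, 2015 and 2158 in shCNOT3-2, and 2612 and 2348 in shNTC. H2BC5 read 2636 and 1828, 2087 and 1877, and 2150.0 and 2604 in the same order, and was higher with DOX in both hairpins. Its second probe set gave 2539.8 and 1871 in shCNOT3-1 but 1528 and 1918 in shCNOT3-2, and 2105 and 2130.5 in shNTC, so its direction in shCNOT3-2 depended on the probe set.

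The remaining H2B genes, and H1-4, H2AC17, H4C4, H4C9 and the dim genes, were named after their values were seen. H2BC21, the H2B gene once named HIST2H2BE, read 359 with DOX and 169.6 without in shCNOT3-1, 93.1 and 160.4 in shCNOT3-2, and 190.5 and 155 in shNTC. H2BC6 read 1563 and 965 in shCNOT3-1, 813 and 1072 in shCNOT3-2, and 1051 and 1137 in shNTC. In both genes the arrays with DOX of shCNOT3-1 and shCNOT3-2 were the highest and the lowest of the 6. H2BC9 read 534 and 540.1, 348 and 549.9, and 459 and 586, and H2BC4 read 119 and 62.5, 92.2 and 84.6, and 134 and 115.

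Of the 8 H3 genes 2 were tested and of the 9 H4 genes 5, all under an intensity of 400 on every array. Medians were 0.49 in shCNOT3-1, -0.28 in shCNOT3-2 and -1.12 in shNTC for H3, and -0.09, -0.40 and 0.18 in the same order for H4. H3C6 read 156 with DOX and 115 without in shCNOT3-1, 169.8 and 148 in shCNOT3-2, and 56.6 and 216 in shNTC. Its difference from shNTC (a log2 value of 2.23 with an SE of 0.62, adjusted p = 0.378 in limma) came from the control line. Its second probe set read 127 and 81.8 in shNTC, the other way. H3C2 read 106 and 72.0, 53.9 and 92.1, and 63.1 and 79.0 in the same order of lines.

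H4C11 read 246 with DOX and 355 without in shCNOT3-1, 275 and 362 in shCNOT3-2, and 399.6 and 378 in shNTC. Its knockdown term was -0.46 ± 0.23 (SE of the model; SD between hairpins 0.09, n = 2), with an adjusted p of 0.401 in limma. H4C8 read 187 and 152, 113 and 136, and 141 and 171, and its second probe set 114 and 126, 98.2 and 103, and 121 and 33.5. H4C5 read 130.1 and 139, 153 and 106, and 133 and 106, while H4C4 read 68.6 to 119 over the 6 arrays. H4C9 read 76.6 and 101 in shCNOT3-1 and 91.6 and 122 in shCNOT3-2, but 90.1 with and 11.1 without DOX in shNTC. Its difference from shNTC (-3.32 ± 0.89, adjusted p = 0.352 in limma) therefore rested on 1 low array without DOX.

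The difference between the hairpins is given as a description, since each hairpin's DOX difference is 1 array against 1 array and the comparison was chosen after the opposite signs had been seen. The DOX difference of shCNOT3-1 minus that of shCNOT3-2 was 2.05 on the log2 scale for H2AC6. H2BC21 (1.86), H2AC14 (1.60), H3C2 (1.31), H2AC25 (1.22), H2BC6 (1.09) and H1-2 (1.03) followed. A limma model of this difference, whose 1 residual degree of freedom is the DOX difference of shNTC, called 0 of 23 histone genes (0% of all genes). At an unadjusted p under 0.05 it held 6 of 23, against 6.41% of all genes, all higher in shCNOT3-1, against 3.11% of all genes. With 1 array in each arm and the signs already seen, these counts do not support a difference between the hairpins. The median size of the difference was 0.57 over the 23 histone genes and 0.34 over all genes tested. Across the 23 genes, which share arrays and in part probe sequence, log2 differences of the hairpins correlated at r = 0.28 (0.26 over all genes).

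**Figure D4:**
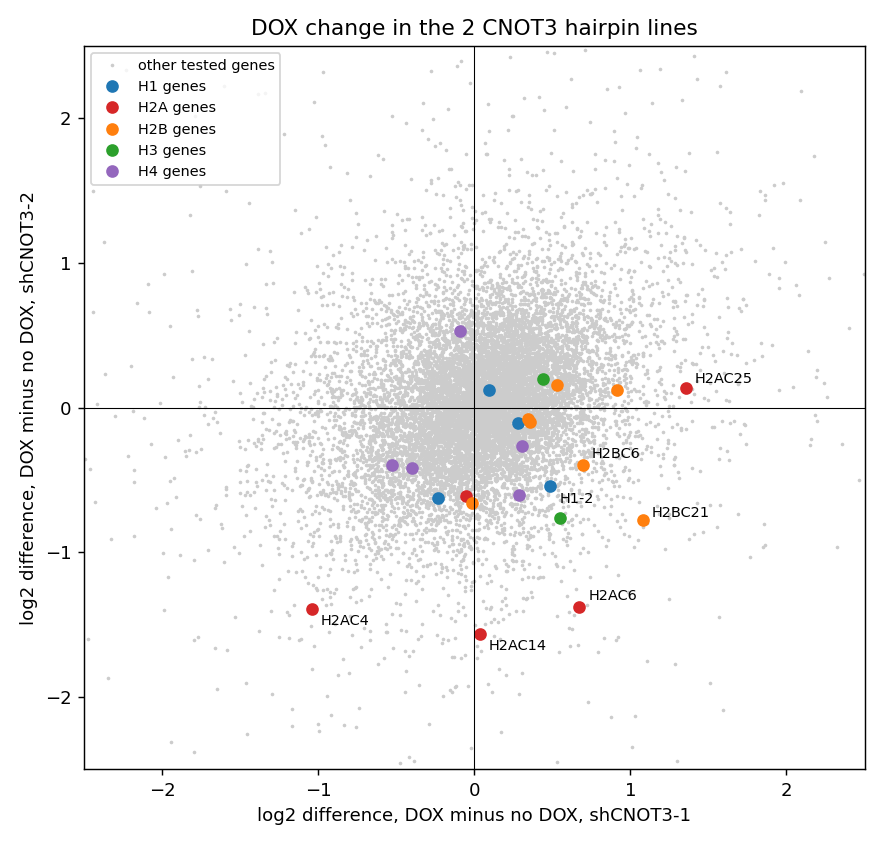
Log2 difference between DOX and no DOX in shCNOT3-1 (horizontal axis) and in shCNOT3-2 (vertical axis) for all tested genes (grey) and the 23 histone genes (coloured by class). Each value comes from 1 array with and 1 without DOX, and 69 genes lie outside the axis limits of 2.5. Of the histone genes 11 lie in the lower right, among them H2AC6, H2BC21 and H1-2.

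Without DOX the lines were alike for most histone genes. The highest over the lowest of the 3 uninduced arrays was under 1.5 for 19 of 23 genes, with a median of 1.23, and 1.23 over all genes. The exceptions were H4C9 (11), H2AC14 (2.59), H3C6 (1.87) and H2BC4 (1.84). For H2AC14 the uninduced shCNOT3-2 array was the low one, at 130.1 against 281 in shCNOT3-1 and 337 in shNTC. DOX in shNTC gave a difference of at least 2-fold in 2 of the 23 genes, H3C6 and H4C9, against 4.01% of all genes.

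The 27 dim genes, of which 3 are pseudogenes, were read by 31 probe sets and not tested. Their intensities ran from 2.43 to 123 over the arrays, and 12 of them exceeded 61.4 on at least 1 array. Testis and germ line members (H1-6, H1-7, H1-8, H2BC1 and H3-4) were all among them. Of the 32 dim probe sets 3 were at least 2-fold higher in both hairpins (9.38%), against 5.66% of all dim probe sets, and 0 were at least 2-fold lower in both, against 4.18%. H3C8 read 123 with DOX and 11.2 without in shCNOT3-1, 20.4 and 7.08 in shCNOT3-2, and 8.31 and 13.4 in shNTC. H2BC1, a testis H2B, read 42.8 and 11.3, 36.9 and 3.42, and 19.9 and 33.4, and H4C13 read 38.7 and 17.6, 40.3 and 4.55, and 44.1 and 9.14, so H4C13 was as much higher in shNTC. At these intensities a fold is uncertain.

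Outside the rule stood 20 probe sets listed with several histone genes, of which 11 were above the dim level. Of these 7 were higher in shCNOT3-1 and lower in shCNOT3-2, 1 was higher in both and 3 lower in both, where 21.3%, 33.2% and 26.9% of all genes tested had these signs. Their median log2 differences were 0.37 in shCNOT3-1, -0.48 in shCNOT3-2 and -0.09 in shNTC. A probe set of H2AC18 and H2AC19 read 1852 with DOX and 1400.2 without in shCNOT3-1, 818 and 1714 in shCNOT3-2, and 1496 and 1365 in shNTC. A probe set listed with 14 H4 genes read 18236 and 30317 in shCNOT3-1, 33685 and 38257 in shCNOT3-2, and 42579 and 34973 in shNTC, so it was lower with DOX in both hairpins. Of 4 more probe sets with the same listing, 2 were above the dim level, and both were higher in shCNOT3-1 and lower in shCNOT3-2. One read 323 with DOX and 246 without in shCNOT3-1, 137 and 283 in shCNOT3-2, and 197 and 209 in shNTC. The other read 272 and 252, 171 and 292, and 306 and 271 in the same order. These probe sets share genes with the members and are no independent measure.

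Factors that act on histone mRNA were also read. Of 20 factors of histone mRNA transcription, 3' end processing and decay, 0 passed in limma (0.222% of all genes), with 0 higher and 1 lower at an unadjusted p under 0.05, against 7.45% and 7.08% of all genes. Median log2 differences were -0.01 in shCNOT3-1, 0.02 in shCNOT3-2 and -0.04 in shNTC. SLBP, the stem-loop binding protein, read 4734 with DOX and 5407 without in shCNOT3-1, 5783 and 4839.8 in shCNOT3-2, and 4845 and 5428 in shNTC. SLBP was lower with DOX in shCNOT3-1 and higher in shCNOT3-2. NPAT, the coactivator of histone gene transcription, read 434 and 537, 565 and 551, and 589 and 622. NCBP2, a subunit of the nuclear cap-binding complex, had a knockdown term of -0.48 ± 0.19 (SE of the model, adjusted p = 0.302 in limma). SRRT, a partner of that complex, gave -0.48, MIF4GD, which joins SLBP to translation factors, 0.41, and NCBP1, the larger cap-binding subunit, 0.30, with adjusted p from 0.369 to 0.543 in limma.

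Of 10 replacement variants 8 were tested and 0 passed in limma (0.222% of all genes), with 1 higher and 0 lower at an unadjusted p under 0.05, against 7.45% and 7.08% of all genes. MACROH2A2, a variant with a macro domain, read 269 with DOX and 57.9 without in shCNOT3-1, 333 and 278 in shCNOT3-2, and 126 and 164 in shNTC. Its adjusted p was 0.249 in limma, and its low uninduced value in shCNOT3-1 was 1 array. H2AX, the variant phosphorylated at DNA breaks, read 3845 and 3948 in shCNOT3-1, 2833 and 4749.7 in shCNOT3-2, and 3828 and 4203 in shNTC. MACROH2A1, another macro domain variant, gave a knockdown term of -0.30 and H2AZ1, the main H2A.Z gene, -0.12. Over the 8 variants the median was 0.00 in shCNOT3-1, -0.23 in shCNOT3-2 and -0.09 in shNTC.

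Of 20 histone chaperones 0 passed in limma (0.222% of all genes). At an unadjusted p under 0.05, 0 were higher and 4 lower, against 7.45% and 7.08% of all genes. Lower in both hairpins were 9 of the 20, against 26.9% of all genes. ANP32E, a chaperone of H2A.Z, read 5613 with DOX and 9605 without in shCNOT3-1, 5418 and 9592 in shCNOT3-2, and 7012 and 7549 in shNTC. Its knockdown term was -0.80 ± 0.14 (SE of the model; SD between hairpins 0.03, n = 2), with an adjusted p of 0.0580 in limma. RBBP4, a histone-binding subunit of several chromatin complexes, gave -2.18 in shCNOT3-1 and -0.43 in shCNOT3-2. NAP1L1, an H2A-H2B chaperone, gave -0.37, and HJURP, the chaperone of CENPA, -0.47. Medians were -0.09 in shCNOT3-1, -0.17 in shCNOT3-2 and -0.11 in shNTC.

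S phase genes were measured because most histone mRNA is made in S phase. Of 26 tested, 0 passed in limma, with 0 higher and 7 lower at an unadjusted p under 0.05, and 20 were lower in both hairpins. Over all genes 0.222% passed, 7.45% were higher and 7.08% lower at that p, and 26.9% were lower in both. Medians were -0.30 in shCNOT3-1, -0.31 in shCNOT3-2 and -0.23 in shNTC, so the median was negative in the control line as well. The hairpins had the same sign here, where histone genes had 0.30 and -0.40. FEN1, a flap nuclease of replication, CCNE2, a cyclin of S phase entry, GINS1 and MCM3, parts of the replicative helicase, had knockdown terms of -0.96, -1.06, -0.62 and -0.62, with adjusted p from 0.0534 to 0.164 in limma. The ACTB 3' to 5' ratio was higher with DOX in both hairpins, and that of GAPDH was higher in shCNOT3-1 and lower in shCNOT3-2. The part of S phase or of RNA integrity in the histone values was not tested.

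**Figure D5:**
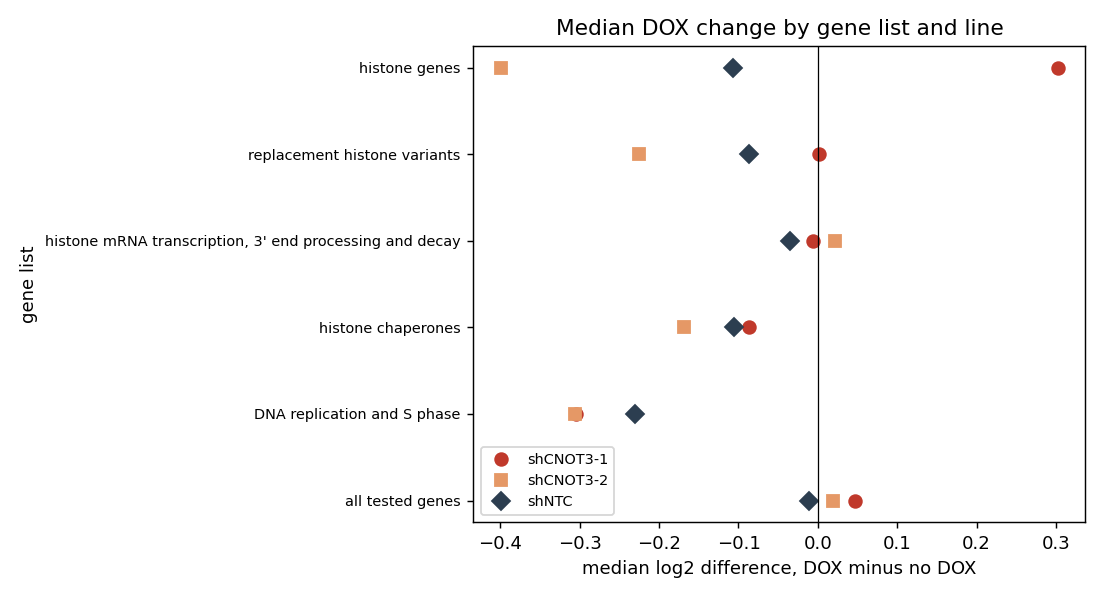
Median log2 difference between DOX and no DOX (horizontal axis) by gene list (vertical axis), with circles for shCNOT3-1, squares for shCNOT3-2 and diamonds for shNTC. The histone medians are 0.30, -0.40 and -0.11, while those of S phase genes are -0.30, -0.31 and -0.23.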

How the data were processed

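RNA of 6 arrays was compared, 1 for each of 3 stable lines with and without DOX. Per the labels' protocols, biotinylated cRNA was made from 500 ng of total RNA. The authors deposited probe set intensity, and the submitters' processing notes name MAS5 (settings: not given in the sources used here). Precision is limited by the number of arrays.

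Gene names came from the platform annotation, updated by Entrez identifier to RefSeq symbols. Intensities were taken to log2 after adding 1, and a gene was read from its brightest probe set with 1 gene. Genes under the median of all probe sets were not tested. All 12630 genes entered 2-sided fits by limma (3.58.1, under R 4.3.3), whose prior variance followed intensity. The main model had the line as a block and 1 knockdown term, and a second added a DOX term. In the main model the difference between hairpins and the DOX difference of shNTC make up the residual. A gene with hairpins that differ, or with a large difference in shNTC, therefore has a wider SE. Pairing comes from the labels, since each line was grown both ways. Deviations of the arrays of a shCNOT3 line correlated at 0.0595. No label describes separate cultures, so p-values reflect the spread of these arrays alone, which may be technical.

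Named were the 3 brightest genes of each class, those with an unadjusted p under 0.05 or a 2-fold difference in both hairpins, and those with several probe sets. Up to 4 genes per other list were named by p, with SLBP and NPAT, and other histone genes after their values were seen. The members and lists were chosen with earlier results of these data known. The procedure was tested on simulated data. Alternatives covered scaling, the added constant, the filter, the probe set, the prior, the block, and leaving out a line. Tables and plots used Python 3.11.15 with matplotlib 3.10.9.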

Additional observations from a re-analysis of the deposited data

How the results depend on the processing

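No histone gene passed in limma for the knockdown term under any of the 13 alternatives, or against shNTC under the 10 that keep all lines. Leaving out a shCNOT3 line leaves no residual for the model against shNTC, so that was not run. For the 15 genes named by rule, 179 of 193 values kept direction and call, 14 changed sign and 0 passed. The lowest adjusted p was 0.0901. With no replicate block the count stayed at 0, with a median of -0.01, and H2BC12 (-0.012) and H4C8 (-0.039) changed sign. Averaging probe sets per gene turned H2AC25 (-0.068) and H4C8 (-0.043), and leaving out _x_at and _s_at probe sets where the gene has another turned H4C8 (-0.10). Genes with only such probe sets, among them H2AC6, H2AC14, H2BC12L, H3C2 and H4C11, kept them there.

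With a line left out, the knockdown term ran from -0.40 to 0.30 for the median, and the called count was 0 to 0. By gene it ran from -0.11 to 0.28 for H1-10, -0.082 to 0.35 for H2BC12, -0.10 to 0.36 for H2BC12L, -0.27 to 0.30 for H4C8, -0.55 to 0.49 for H1-2, -1.57 to 0.036 for H2AC14, -1.38 to 0.67 for H2AC6, -0.76 to 0.55 for H3C2 and -0.093 to 0.53 for H4C5. These ends are the values of the single hairpins.

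Genes at least 2-fold different the same way in both hairpins numbered 1 of 23, but 0 with 16 added or a level of at least 100. With no filter they were 4 of 50, and with every probe set its own feature 4 of 58. Those beyond H2AC4 were the dim H3C8, H4C13 and H2BC1. Of all dim probe sets, 5.66% were at least 2-fold higher in both hairpins. Higher in shCNOT3-1 and lower in shCNOT3-2 were 11, but 15 with no filter, 14 with averaged probe sets and 9 with a level of at least 100. With every probe set its own feature they were 19 of 58, where more features were tested. Apart from that of dim probe sets, the share of all features for both counts was taken in the main setting only. A model of the difference between hairpins, added after the values were seen, called 0 histone genes in limma (6 at an unadjusted p under 0.05), and 1 (H2AC6) with arrays centred on the median of tested genes. The share of all genes called by this model was taken in the main setting only, so the call with centring has no background beside it. The model sets single arrays against each other, with 1 residual degree of freedom from shNTC, and supports no difference. With centring the difference of H2AC6 was 1.98 with an SE of 0.42, against 2.05 and 0.40 in the main setting, so it was no larger. The cause of the change in the call with centring was not tested. Over all genes, 28 passed for knockdown. This count was 191 with no block, 56 with a level of at least 100 or with _x_at and _s_at probe sets left out where another exists, 6 with averaged probe sets, 3 with no filter, 0 without an intensity trend or with every probe set its own feature, and 39 to 62 with a line left out. Against shNTC it was 0, but 7 with centring and 6 with a level of at least 100, none of them a histone gene.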
